A study of Mus musculus with 4 samples.

Results

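The genes described here are 6 genes by which marginal zone (MZ) B cells are recognised, Cr2, Cd1d1, Cd9, S1pr3, Asb2 and Cd36. They were taken by symbol from the 41214 genes of the count table, each symbol matched 1 Ensembl gene, and all 6 were among the 14554 genes that passed the filter of at least 10 counts in at least 2 libraries. RNA came from unstimulated B220+ splenocytes of mice, enriched with an antibody to B220 and magnetic beads. One genotype, labelled Miz-1WT and called MIZ-1 WT here, was the control. The other, labelled Miz-1DPOZ and called MIZ-1 ΔPOZ here, carried Mb1-Cre together with the floxed allele Miz-1 floxPOZ on a C57BL/6 background, in which Cre is driven from the Cd79a locus in B cells and removes the POZ domain of MIZ-1. The study's methods describe young adult mice in general, and the labels state neither age nor sex, nor whether control mice carried Cre or the floxed allele, nor whether an RNA sample was pooled from several mice. Each genotype had 2 libraries, described as a biological duplicate. The p-values here rest on the spread between libraries of a genotype, estimated with information from all genes together.

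Naïve B cells of the mouse spleen are mainly follicular (FO) and MZ B cells. MZ B cells sit at the border of the white pulp, where blood-borne antigen arrives, and answer it rapidly and largely without T cells. Their formation needs NOTCH2 signaling, which acts on transcription through the DNA-binding protein RBPJ, and the study separated MZ from FO B cells by high CD21 without CD23. Cr2 encodes the complement receptors CD21 and CD35, Cd1d1 a molecule that presents lipids to NKT cells, Cd9 a tetraspanin, S1pr3 a receptor for sphingosine-1-phosphate (S1P) and Cd36 a class B scavenger receptor. Asb2 encodes no surface protein but the substrate-binding subunit of an intracellular ubiquitin ligase that acts on filamins.

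Promoter sequences are shown for the 5 genes that had a window in the RefSeq table used here, Cr2, Cd9, S1pr3, Asb2 and Cd36, to let the letters be read beside the RNA values. Each window spans 250 bases before and 50 after an annotated start on GRCm38.p6 and is printed 5′ to 3′ on the gene's own strand. The windows lie at chr1:195176670-195176969 on the minus strand for Cr2, chr6:125494711-125495010 on the minus strand for Cd9, chr13:51408368-51408667 on the plus strand for S1pr3, chr5:17835847-17836146 on the minus strand for Cd36 and chr12:103355952-103356251 on the minus strand for Asb2. Capitals mark TGGGAA, the core of the RBPJ motif, in Cr2, Cd9, S1pr3 and Cd36, and CACGTG, the E-box read by MYC and MAX, in Asb2.
Cr2: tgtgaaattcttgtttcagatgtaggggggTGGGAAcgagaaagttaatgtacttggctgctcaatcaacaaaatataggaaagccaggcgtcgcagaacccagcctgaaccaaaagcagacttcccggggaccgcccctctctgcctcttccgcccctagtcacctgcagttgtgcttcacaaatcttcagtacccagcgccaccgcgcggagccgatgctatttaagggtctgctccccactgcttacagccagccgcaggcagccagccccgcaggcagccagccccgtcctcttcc
Cd9: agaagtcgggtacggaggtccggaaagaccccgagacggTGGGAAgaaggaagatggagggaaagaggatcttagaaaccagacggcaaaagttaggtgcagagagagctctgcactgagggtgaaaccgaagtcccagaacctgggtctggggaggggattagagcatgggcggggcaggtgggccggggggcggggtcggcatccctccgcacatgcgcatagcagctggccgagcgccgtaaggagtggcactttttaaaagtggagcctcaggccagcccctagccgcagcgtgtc
S1pr3: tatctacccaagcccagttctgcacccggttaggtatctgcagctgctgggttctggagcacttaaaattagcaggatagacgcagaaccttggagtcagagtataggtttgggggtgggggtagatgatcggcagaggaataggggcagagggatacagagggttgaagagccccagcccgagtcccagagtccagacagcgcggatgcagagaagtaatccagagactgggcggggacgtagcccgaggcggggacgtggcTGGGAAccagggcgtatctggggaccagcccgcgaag
Cd36: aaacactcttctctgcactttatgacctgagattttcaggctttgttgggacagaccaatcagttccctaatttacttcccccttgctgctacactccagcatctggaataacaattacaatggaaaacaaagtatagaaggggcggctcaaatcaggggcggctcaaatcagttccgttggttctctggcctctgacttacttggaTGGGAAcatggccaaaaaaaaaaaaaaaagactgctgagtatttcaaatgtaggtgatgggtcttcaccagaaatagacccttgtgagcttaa
Asb2: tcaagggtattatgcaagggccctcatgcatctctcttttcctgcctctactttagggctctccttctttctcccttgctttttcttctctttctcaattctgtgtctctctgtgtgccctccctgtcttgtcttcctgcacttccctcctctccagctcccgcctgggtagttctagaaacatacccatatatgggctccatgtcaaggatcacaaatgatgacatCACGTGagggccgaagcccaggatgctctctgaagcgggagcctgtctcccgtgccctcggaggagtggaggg

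TGGGAA, searched on both strands, was present in the windows of 4 of 5 genes, each time once and on the gene's strand. Relative to the start of the window, its first base lay 220 bases upstream in Cr2, 211 upstream in Cd9 and 43 upstream in Cd36, and 14 downstream in S1pr3. The Cd36 window lies inside the gene, whose 5′ end is at 17888801 in the gene coordinates used here. In S1pr3 the start of the window lies upstream of the gene start at 51408639. Of all 32851 promoter windows in the table, 25.6% held these 6 letters. Neither Asb2 window, of which the second lies at chr12:103338341-103338640, held them. CACGTG, which is its own reverse complement, was found in 1 of the 5 genes, Asb2, and in 7.15% of all windows. CCACCC, the box read by KLF factors, was found on either strand in windows of 3 genes, Cr2, S1pr3 and the second window of Asb2, and in 31.5% of all windows. In Cr2 it overlaps the RBPJ core on the opposite strand. These matches describe the letters of the windows and not binding.

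Libraries held 43026814 to 46387209 reads assigned to genes, and TMM factors, which correct for composition, ran from 0.977 to 1.03. The targeted gene Zbtb17, which encodes MIZ-1 (chr4:141444654-141467930, plus strand), had 2087 and 1946 counts in MIZ-1 WT against 1774 and 1669 in MIZ-1 ΔPOZ. Its log2 fold change was -0.32 (SE 0.06, adjusted p = 0.00857, edgeR quasi-likelihood test with Benjamini-Hochberg adjustment). A count over the whole gene does not resolve the deleted exons, so it does not check the deletion, and Zbtb17 overlaps exons of Spen on the opposite strand. With libraries scaled to the reads of pan-B cell genes, an alternative called pan-B scaling here, the Zbtb17 call was lost (-0.07, adjusted p = 0.466). Reads outside genes made up 27.2% and 25.5% of all reads in the table for MIZ-1 WT, but 21.6% and 21.1% for MIZ-1 ΔPOZ. Y-linked Ddx3y had 15840 and 14896 counts in MIZ-1 WT against 680 and 622 in MIZ-1 ΔPOZ, whereas Xist, made from the inactive X chromosome, had 49 and 60 counts in MIZ-1 WT against 38145 and 40838 in MIZ-1 ΔPOZ. Sex and genotype can therefore not be told apart. This holds for the 6 MZ genes too, although all are autosomal.

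All 6 MZ genes were higher in MIZ-1 ΔPOZ than in MIZ-1 WT B220+ splenocytes at an adjusted p under 0.05, from 1.19-fold for Cr2 to 3.52-fold for Asb2. Of all 14554 tested genes, 21.1% were called higher and 18.9% lower, so that 40.0% were called in either direction. Higher genes made up 52.8% of these calls, and 88.6% with pan-B scaling, under which all 6 MZ genes were also called higher. For each of the 6 genes both MIZ-1 ΔPOZ libraries lay above both MIZ-1 WT libraries, as they did for 37.2% of all tested genes, while they lay below for 37.6%. Their median log2 fold change was 0.83, beside -0.01 over all tested genes. A log2 fold change of 0.6, the limit named for RNA-seq in this study, taken here with an unadjusted p under 0.05, was passed upward by 5 of the 6 genes, all but Cr2, and by 15.0% of all tested genes, against 5.30% downward. Levels in single libraries are given in CPM, the counts of a gene relative to the TMM-corrected total of its library. In RNA from a mixed population, more cells of a type and more RNA per cell cannot be told apart.

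**Figure D1:**
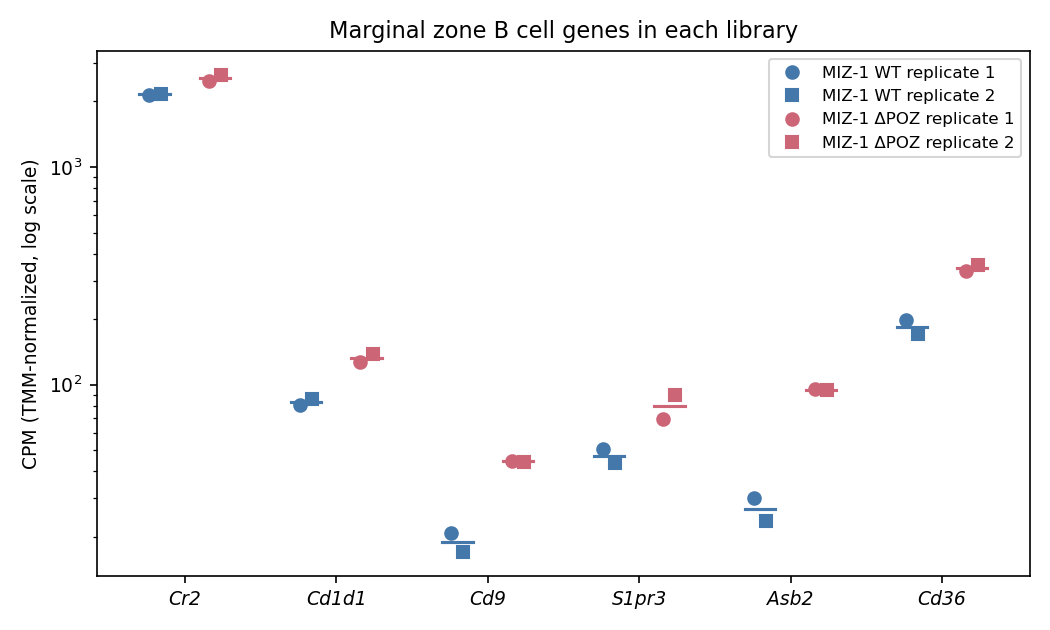
Level of each of the 6 marginal zone B cell genes in each of the 4 libraries, in CPM after TMM normalization, on a log scale. Circles are replicate 1, squares replicate 2, and horizontal bars the mean of each genotype (n = 2). Both MIZ-1 ΔPOZ points lie above both MIZ-1 WT points for every gene, with the smallest separation for Cr2 and the largest for Asb2.

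Cr2 (ENSMUSG00000026616, chr1:195136811-195176716, minus strand) encodes CD21, the C3d receptor whose high surface level defined MZ B cells in this study, and by alternative splicing CD35, which gene-level counts do not separate from it. It was among the most abundant transcripts of these cells, as 0.165% of tested genes had a higher mean CPM in MIZ-1 WT. Its level was 2148 and 2170 CPM in MIZ-1 WT against 2472 and 2657 CPM in MIZ-1 ΔPOZ. The groups did not overlap, and the gap between them was the smallest of the 6 genes by fold. The mean rose from 2159 ± 15.6 to 2564 ± 131 CPM (SD, n = 2), a log2 fold change of 0.25 (SE 0.06, 95% confidence interval 0.09 to 0.41, adjusted p = 0.0282, edgeR quasi-likelihood test), and 28.9% of all tested genes had a higher log2 fold change. The call was lost when MIZ-1 WT replicate 1 (0.24, adjusted p = 0.134), MIZ-1 WT replicate 2 (0.26, adjusted p = 0.113) or MIZ-1 ΔPOZ replicate 2 (0.21, adjusted p = 0.0712) was left out.

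CD21 and CD23 together define the gate, and Fcer2a, which encodes CD23, moved the other way. Fcer2a had 10372 and 10385 counts in MIZ-1 WT against 5853 and 7363 in MIZ-1 ΔPOZ, and fell by 0.74 on the log2 scale (SE 0.14, adjusted p = 0.0109, edgeR quasi-likelihood test). The ratio of Cr2 to Fcer2a in CPM was 9.03 and 8.78 in MIZ-1 WT against 20.1 and 15.8 in MIZ-1 ΔPOZ. It was thus higher in both MIZ-1 ΔPOZ libraries, and its mean went from 8.91 ± 0.178 to 18.0 ± 3.01 (SD, n = 2), 2.02-fold. The ratio does not depend on library scaling and was given no test.

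CD21 works in a coreceptor with CD81, and of 5 tested coreceptor genes and C3 receptor relatives 1 rose and 1 fell. Cd81, the tetraspanin of the coreceptor, rose by a log2 fold change of 0.45 (adjusted p = 0.00250, edgeR quasi-likelihood test). Cd55, which encodes decay-accelerating factor, fell by 0.94 on the log2 scale (adjusted p = 0.00183). The complement regulators Cr1l and Cd46 and the interferon-induced Ifitm1 had log2 fold changes of -0.14, -0.03 and -0.01, none past the threshold, and all were positive with pan-B scaling. The median of the list was -0.03, and 0.22 with pan-B scaling.

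Cd1d1 (ENSMUSG00000028076, chr3:86995834-86999441, minus strand), which encodes the CD1d heavy chain that displays lipid antigens, had 80.8 and 86.0 CPM in MIZ-1 WT against 127 and 138 CPM in MIZ-1 ΔPOZ. The lower MIZ-1 ΔPOZ library stood well above the higher MIZ-1 WT library. Mean levels were 83.4 ± 3.68 and 132 ± 7.90 CPM (SD, n = 2), a 1.59-fold rise with a log2 fold change of 0.67 (SE 0.06, 95% confidence interval 0.51 to 0.82, adjusted p = 0.00172, edgeR quasi-likelihood test). Its near-identical neighbour Cd1d2 is annotated as a polymorphic pseudogene. It had 31 and 35 counts in MIZ-1 WT against 50 and 73 in MIZ-1 ΔPOZ, against 3525 to 6050 for Cd1d1. Reads shared by the paralogs may have been left out of both, so the Cd1d2 value is uncertain (log2 fold change 0.81, adjusted p = 0.0879).

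Of 4 tested genes listed for CD1d presentation, 3 rose and none fell, with a median log2 fold change of 0.77. Cd1d2, whose value is uncertain, did not pass and enters that median. Mttp, which encodes the lipid transfer protein that loads CD1d in the endoplasmic reticulum, rose by 1.26 (SE 0.24, adjusted p = 0.0119, edgeR quasi-likelihood test) from 37 and 52 to 115 and 113 counts. Psap, the precursor of the saposins that exchange lipids on CD1d in lysosomes, rose by 0.74 (adjusted p = 0.00196), and B2m, the light chain, by 0.28 (adjusted p = 0.0216). Mttp stayed at a low level, whereas Psap and B2m are among the abundant transcripts of most cells. Psap is also highly expressed by macrophages, whose markers differed between the genotypes as given further on.

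Cd9 (ENSMUSG00000030342, chr6:125460266-125494791, minus strand) encodes a tetraspanin found on MZ B cells, B-1 cells and plasma cells but scarcely on FO B cells. It had 20.9 and 17.1 CPM in MIZ-1 WT against 44.8 and 43.9 CPM in MIZ-1 ΔPOZ. The MIZ-1 ΔPOZ libraries were alike, and both exceeded the MIZ-1 WT libraries clearly. Its mean rose from 19.0 ± 2.70 to 44.4 ± 0.613 CPM (SD, n = 2), 2.34-fold, with a log2 fold change of 1.22 (SE 0.10, 95% confidence interval 0.97 to 1.48, adjusted p = 0.00139, edgeR quasi-likelihood test). A larger log2 fold change was found for 8.84% of tested genes. The gene Gm26728 on the opposite strand overlaps exons of Cd9 but had at most 1 count in any library.

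Tetraspanins organise other membrane proteins into microdomains, and they did not move as 1 family. Of 11 tested tetraspanin genes other than Cd9, 4 rose, 3 fell and 4 did not pass, with a median log2 fold change of 0.45. Beside Cd81, the genes that rose were Tspan3 (0.73, adjusted p = 0.00664, edgeR quasi-likelihood test), Cd82 (0.65, adjusted p = 0.00339) and Tspan31 (0.48, adjusted p = 0.00510). Those that fell were the leukocyte tetraspanins Cd37 (-0.53, adjusted p = 0.00208), Cd53 (-0.45, adjusted p = 0.00307) and Tspan32 (-0.30, adjusted p = 0.00741), of which Tspan32 lost its call with pan-B scaling. Cd63, Tspan33, Tspan13 and Cd151 had values of 1.03, 0.85, 0.21 and -0.20 and did not pass, and Cd151 turned positive with pan-B scaling. Tspan13 and Tspan33 passed with that scaling, which gave 6 higher and 2 lower genes.

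S1pr3 (ENSMUSG00000067586, chr13:51408639-51422797, plus strand) encodes an S1P receptor found on MZ B cells, one of those through which S1P in blood acts on them. Its level was 50.5 and 43.9 CPM in MIZ-1 WT against 69.8 and 89.7 CPM in MIZ-1 ΔPOZ. The groups did not overlap, but S1pr3 varied more between the MIZ-1 ΔPOZ libraries than any of the other 5 genes did. Mean levels were 47.2 ± 4.70 and 79.7 ± 14.1 CPM (SD, n = 2), 1.69-fold higher, with a log2 fold change of 0.76 (SE 0.13, 95% confidence interval 0.43 to 1.08, adjusted p = 0.00875, edgeR quasi-likelihood test). The call was lost without MIZ-1 WT replicate 2 (0.66, adjusted p = 0.0561), and without MIZ-1 ΔPOZ replicate 2 the value was 0.58. The annotated gene Gm32834 overlaps S1pr3 exons on the opposite strand and was not analysed here.

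Among the other S1P receptors and proteins of S1P metabolism and export, 1 of 8 tested genes rose and 2 fell, with a median log2 fold change of -0.06 (0.19 with pan-B scaling). S1pr2, a receptor that confines B cells to follicle and germinal centre niches, rose from 179 and 240 counts to 1663 and 1150 counts. Its log2 fold change was 2.64 (SE 0.21, adjusted p = 0.00115, edgeR quasi-likelihood test), a larger value than for any of the 6 MZ genes, although these differences between genes were not tested. S1pr4, a lymphocyte receptor, fell by 0.89 on the log2 scale (adjusted p = 0.000807), and Spns2, an S1P exporter, fell by 1.72 (adjusted p = 0.000732) from 1377 and 1255 to 432 and 421 counts.

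S1pr1, the receptor by which lymphocytes leave tissue and which MZ B cells need to stay in their niche, was abundant and did not pass the test. It had 20238 and 16099 counts in MIZ-1 WT against 18795 and 19260 in MIZ-1 ΔPOZ, and the groups overlapped. Its log2 fold change was -0.02, with a 95% confidence interval of -0.28 to 0.23 (adjusted p = 0.877, edgeR quasi-likelihood test), and positive with pan-B scaling (0.22). The remaining S1pr5 (0.35), the S1P lyase Sgpl1 (0.11), the kinase Sphk2 (-0.10, turning positive with pan-B scaling) and the exporter Mfsd2b (-0.35) did not pass, and Sphk1, with 2 to 11 counts, was not tested.

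Asb2 (ENSMUSG00000021200, chr12:103321142-103356001, minus strand), the subunit that brings filamins to a cullin-5 ubiquitin ligase, changed most of the 6 genes. It had 30.2 and 23.6 CPM in MIZ-1 WT against 95.3 and 94.2 CPM in MIZ-1 ΔPOZ. Both MIZ-1 ΔPOZ libraries stood at nearly the same level, far above either MIZ-1 WT library. The mean rose from 26.9 ± 4.64 to 94.8 ± 0.803 CPM (SD, n = 2), 3.52-fold with a 95% confidence interval of 2.89 to 4.30, and the log2 fold change was 1.82 (SE 0.12, adjusted p = 0.000790, edgeR quasi-likelihood test). A larger log2 fold change was found for 4.23% of tested genes. Whichever library was left out, the value stayed between 1.65 and 2.01.

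Partners of ASB2 lay close to 0 on the log2 scale. Of 5 tested genes of its ligase complex and its substrates, 0 passed the edgeR quasi-likelihood test, 2 had an unadjusted p under 0.05 (Elob and Flna) and 1, Flna, passed the DESeq2 Wald test. Their median log2 fold change was 0.04. Flna, which encodes filamin A, had -0.23 (adjusted p = 0.0587, edgeR quasi-likelihood test), turning to 0.02 with pan-B scaling. The elongins Elob and Eloc had 0.17 and 0.04, the RING protein gene Rnf7 0.12 and the scaffold Cul5 -0.04, none past the threshold. With pan-B scaling, 4 of these 5 genes were called higher, all but Flna, and their median was 0.29. Asb2 itself was 2.07 under that scaling.

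Cd36 (ENSMUSG00000002944, chr5:17781690-17888801, minus strand) encodes a receptor for oxidised lipoproteins and long-chain fatty acids that marks MZ B cells among splenic B cells of the mouse and is also made by macrophages, platelets and endothelium. It had 198 and 171 CPM in MIZ-1 WT against 334 and 354 CPM in MIZ-1 ΔPOZ. Neither replicate pair came near the gap between genotypes. The mean rose from 184 ± 19.5 to 344 ± 14.2 CPM (SD, n = 2), 1.86-fold, with a log2 fold change of 0.90 (SE 0.08, 95% confidence interval 0.70 to 1.10, adjusted p = 0.00155, edgeR quasi-likelihood test).

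Of 6 tested genes of related scavenger receptors and lipid handling, 4 rose and none fell, with a median log2 fold change of 0.92. Scarb1, the HDL receptor of the same class, rose by 1.18 (adjusted p = 0.00287, edgeR quasi-likelihood test), and the fatty acid binding protein genes Fabp5 and Fabp4 by 1.25 (adjusted p = 0.00499) and 2.45 (adjusted p = 0.00730). Fabp4 rested on low counts, 15 and 28 in MIZ-1 WT against 163 and 91 in MIZ-1 ΔPOZ. Plin2, which coats lipid droplets, rose by 0.67 (adjusted p = 0.0240). The lysosomal receptor gene Scarb2 and the acyl-CoA synthetase gene Acsl1 had 0.19 and 0.11 and did not pass, though both passed with pan-B scaling. The summed level of this list was higher in MIZ-1 ΔPOZ replicate 1 than in replicate 2 by 0.26 on the log2 scale, and that of macrophage markers by 0.68. Macrophages also express these genes, and their part in the list's difference was not tested.

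**Figure D2:**
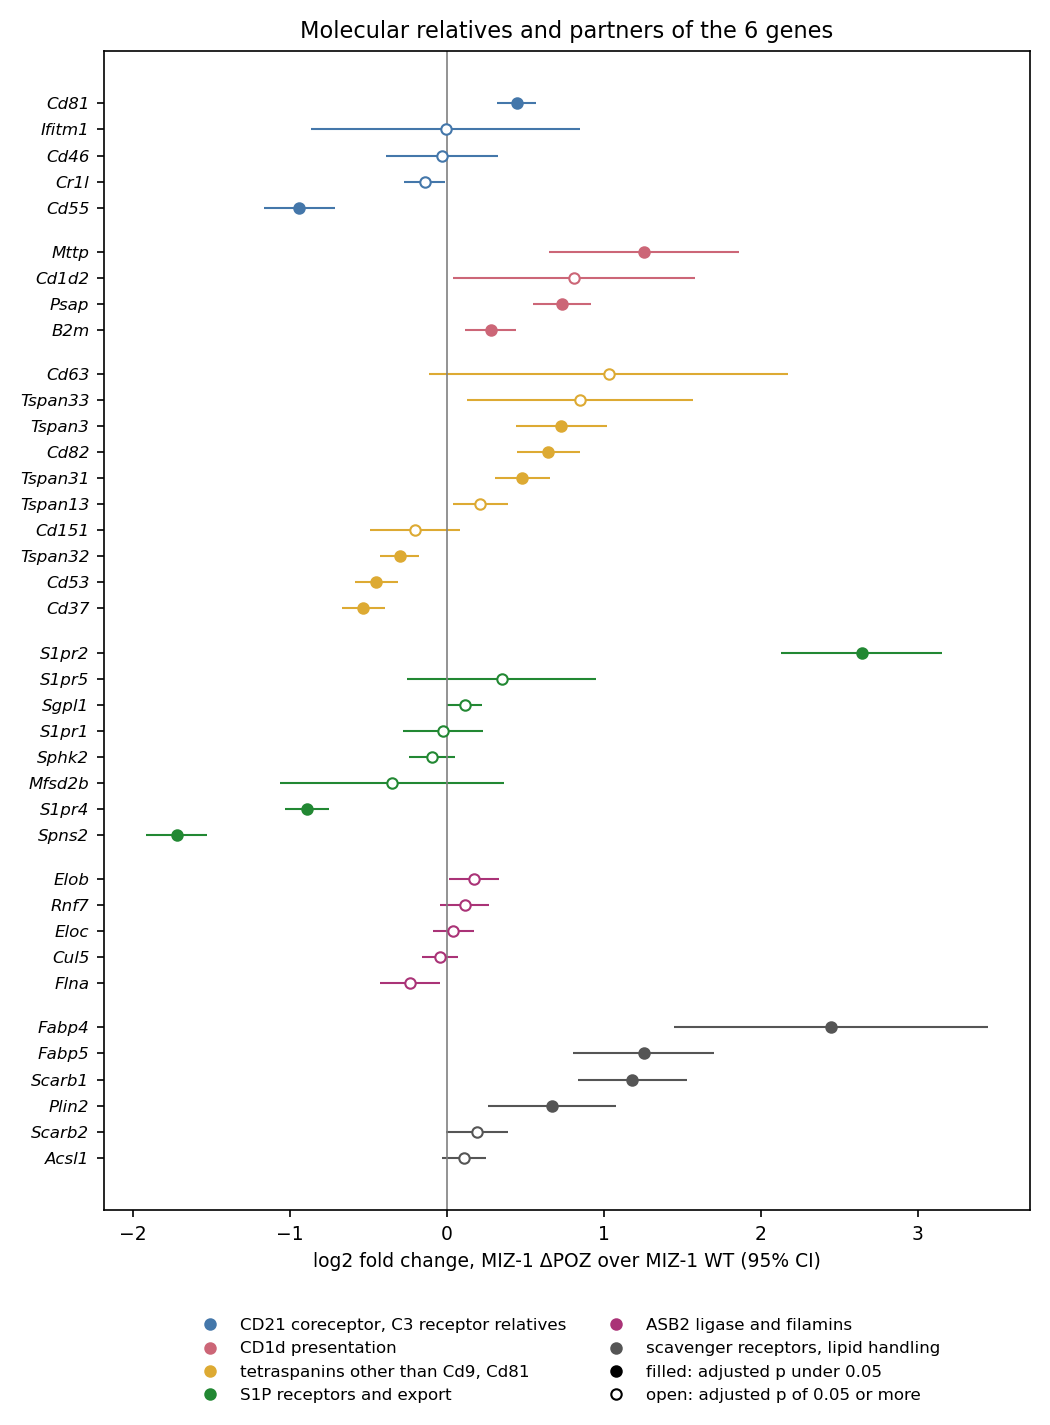
Log2 fold change of MIZ-1 ΔPOZ over MIZ-1 WT (points) with its 95% confidence interval (lines) for tested relatives and partners of the 6 genes, grouped by family, from the edgeR quasi-likelihood fit. Filled points have an adjusted p under 0.05 and open points do not. S1pr2 lies farthest to the right at 2.64 and Spns2 farthest to the left at -1.72, while the ASB2 ligase genes lie between -0.23 and 0.17.

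Levels were compared between the 6 genes only per length of exon, as CPM per kilobase (RPKM). In MIZ-1 WT, Cr2 stood first with 266 ± 1.92 RPKM, followed by Cd36 with 51.4 ± 5.43 and Cd1d1 with 32.5 ± 1.43 (SD, n = 2). S1pr3 with 10.6 ± 1.05, Cd9 with 9.28 ± 1.32 and Asb2 with 7.59 ± 1.31 RPKM came last, and the libraries of neighbours in that order overlapped. In MIZ-1 ΔPOZ the first 3 kept their order at 316 ± 16.1, 95.8 ± 3.95 and 51.5 ± 3.07 RPKM. The last 3 stood in the reverse order there, Asb2 at 26.8 ± 0.227, Cd9 at 21.7 ± 0.300 and S1pr3 at 17.9 ± 3.15 RPKM, without overlap of libraries.

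Of 11 tested other genes of MZ B cells, 8 rose and none fell, with a median log2 fold change of 0.81. That median is the value of Cd1d2, which had low counts, did not pass and was called uncertain above. Il9r, the interleukin-9 receptor gene, rose from 5808 and 6175 counts to 34247 and 31136 counts, a log2 fold change of 2.35 (SE 0.06, adjusted p = 8.19e-05, edgeR quasi-likelihood test). Ackr3, a chemokine scavenging receptor gene, rose by 2.16 (SE 0.13, adjusted p = 0.000760) from 380 and 282 to 1685 and 1478 counts. Both values exceeded that of Asb2, the highest of the 6 genes, but the difference between genes was not tested.

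Notch2, the receptor gene that directs MZ fate, did not pass the test. It had 27137 and 26483 counts in MIZ-1 WT against 22905 and 26567 in MIZ-1 ΔPOZ. Its log2 fold change was -0.20 (95% confidence interval -0.47 to 0.06, adjusted p = 0.180, edgeR quasi-likelihood test), turning to 0.04 with pan-B scaling. Dtx1, a NOTCH target and regulator, rose by 0.65 (SE 0.06, adjusted p = 0.00172) from 11944 and 10547 to 19025 and 18485 counts. Dtx1 lies outside the rule for named genes and was chosen after its value was seen, as was Notch2.

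Genes of FO B cells lay on the other side. Of 8 tested, none rose and 6 fell, with a median log2 fold change of -0.81, and with pan-B scaling 6 fell and 1 rose, Cxcr5, named after its value was seen (median -0.57). Satb1, a chromatin organiser, fell by 1.14 on the log2 scale (SE 0.06, adjusted p = 0.000739, edgeR quasi-likelihood test), and Cd55, given above, by 0.94. Both lists were drawn up with earlier results on these samples known, so their directions are a description and not independent evidence.

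**Figure D3:**
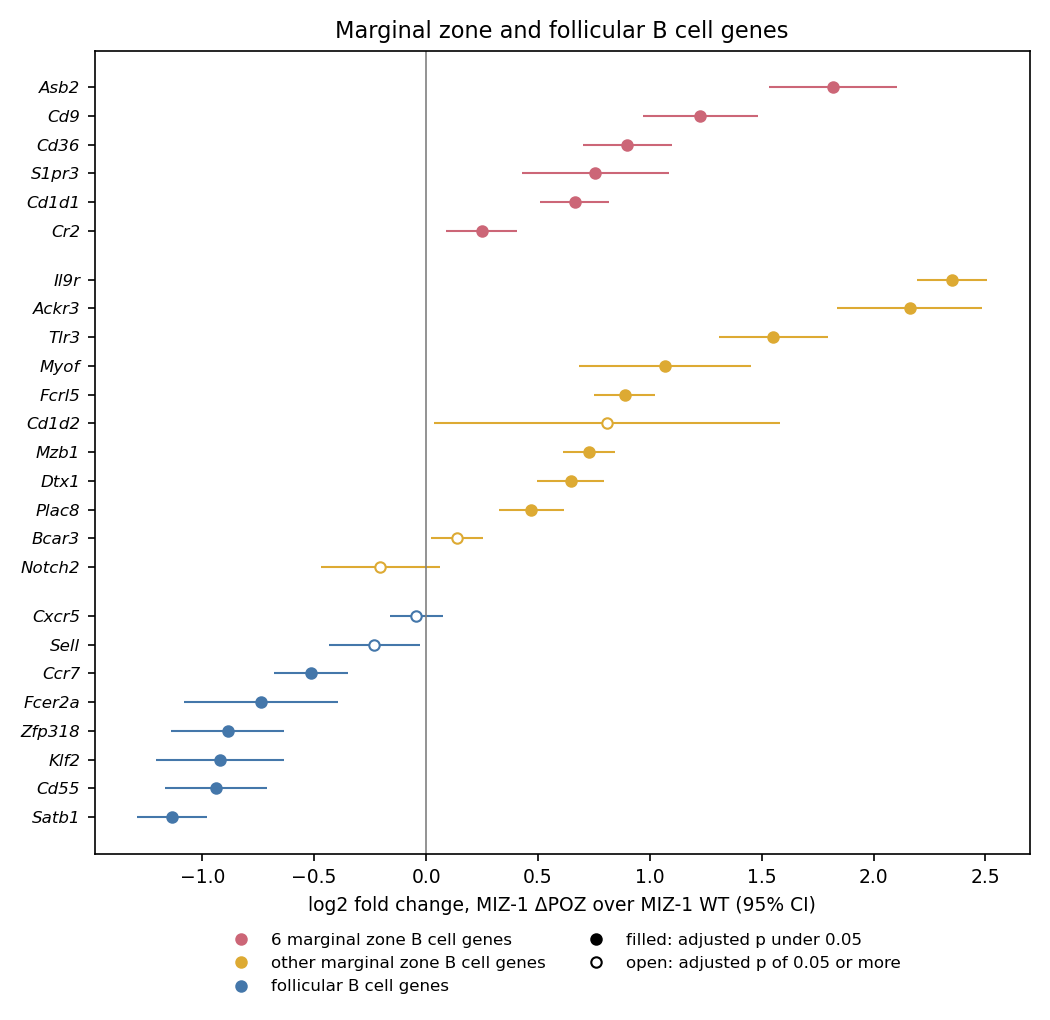
Log2 fold change of MIZ-1 ΔPOZ over MIZ-1 WT (points) with its 95% confidence interval (lines) for the 6 marginal zone B cell genes, other marginal zone B cell genes and follicular B cell genes. Filled points have an adjusted p under 0.05 in the edgeR quasi-likelihood test and open points do not. These 6 genes lie between 0.25 and 1.82, and the follicular genes between -1.14 and -0.04.

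Pan-B cell genes, which check that the cells are B cells, were abundant in every library, with summed levels of 11176 and 11422 CPM in MIZ-1 WT against 9100 and 9590 CPM in MIZ-1 ΔPOZ. Of 10 tested, 8 fell, with a median log2 fold change of -0.26, and 3 of 10 fell when libraries were scaled to these genes without Cd79a. Cd79a, the locus that carries Mb1-Cre, fell by 1.44 on the log2 scale (adjusted p = 0.00157, edgeR quasi-likelihood test), and Cd37 by 0.53. Set against the reads of the other pan-B genes, whose sum was lower in MIZ-1 ΔPOZ, the ratio of any gene shifts upward. Pan-B scaling shifted the median log2 fold change of all tested genes by 0.25. The 6 MZ genes therefore differed more than in CPM by the scaling itself. Per 1000 pan-B reads, Cr2 had 198 and 195 reads in MIZ-1 WT against 275 and 281 in MIZ-1 ΔPOZ, 1.41-fold. The same ratio was 1.89-fold for Cd1d1, 2.00-fold for S1pr3, 2.22-fold for Cd36, 2.78-fold for Cd9 and 4.19-fold for Asb2.

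Markers of macrophages, which B220 enrichment does not select, moved with the MZ genes. Their summed level was 982 and 1308 CPM in MIZ-1 WT against 5845 and 3657 CPM in MIZ-1 ΔPOZ. Of 18 markers, 17 rose, 1 did not pass (Vsig4, named after its value was seen), and none was at 0 in all libraries, with a median log2 fold change of 1.98. Siglec1, a receptor of metallophilic macrophages at the marginal zone, rose by 3.50 (SE 0.18, adjusted p = 0.000739, edgeR quasi-likelihood test) from 46 and 46 to 646 and 474 counts, and Axl, a receptor that takes part in the uptake of dying cells, rose from 2331 and 2692 to 13747 and 9442 counts (adjusted p = 0.00108).

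Within a genotype the macrophage sum differed more between replicates than any of the 6 MZ genes did. In MIZ-1 ΔPOZ the macrophage sum was higher in replicate 1 than in replicate 2 by 0.68 on the log2 scale. Over the same libraries S1pr3 differed by -0.36, Cd1d1 by -0.12, Cr2 by -0.10, Cd36 by -0.08, Asb2 by 0.02 and Cd9 by 0.03. In MIZ-1 WT the macrophage sum differed by -0.41, Cd1d1 by -0.09 and Cr2 by -0.01, and Asb2, Cd9, Cd36 and S1pr3 differed the other way, by 0.35, 0.29, 0.22 and 0.20. Without MIZ-1 ΔPOZ replicate 1, the library richest in macrophage markers, the log2 fold changes were 0.30 for Cr2, 0.73 for Cd1d1, 1.21 for Cd9, 0.93 for S1pr3, 1.81 for Asb2 and 0.94 for Cd36. The MIZ-1 ΔPOZ library left in that fit still had a macrophage sum of 3657 CPM, against 982 and 1308 CPM in MIZ-1 WT. Leaving out replicate 1 therefore did not remove the macrophage difference. The share of each gene's reads that came from macrophages was not tested.

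**Figure D4:**
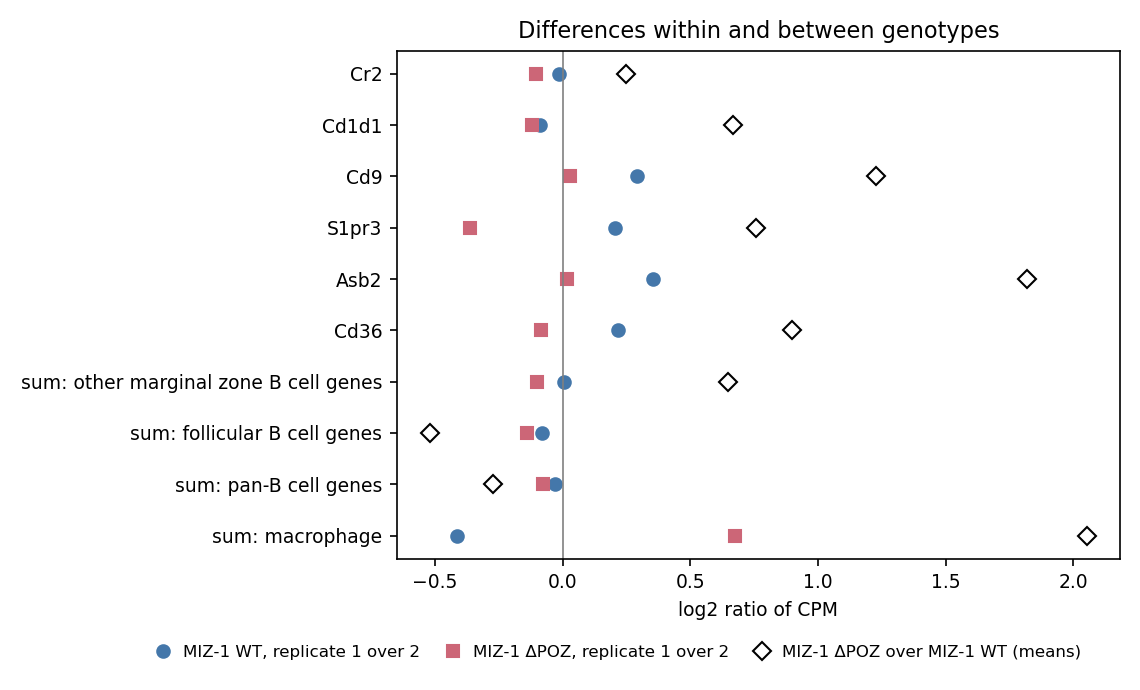
Log2 ratio of CPM between replicates 1 and 2 of MIZ-1 WT (circles) and of MIZ-1 ΔPOZ (squares), and between the genotype means (diamonds), for the 6 genes and for the summed CPM of 4 gene lists. For the 6 genes the diamonds lie to the right of both replicate ratios, from 0.25 to 1.82. The macrophage sum differed between replicates by -0.41 and 0.68, and between genotypes by 2.05.

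Markers of other cells that can make these transcripts were examined as well. Cd9 and Cd36 are also made by platelets and endothelium, and S1pr3 by endothelium. Of 8 platelet and megakaryocyte markers 3 were tested and 1 rose, Pf4, from 6 and 3 to 25 and 15 counts, the median log2 fold change being -0.14, and their sum lay between 1.65 and 1.95 CPM with Gp1bb at 0. Of 8 endothelial markers 5 were tested, with 1 higher (Stab2, 1.85) and 1 lower (Pecam1, -0.26) and a median of 0.42. Their sum lay between 303 and 325 CPM, most of it Pecam1, which B cells also make, and Emcn was at 0. Follicular dendritic and other stromal cells carry CD21 as well. Of their 8 markers 3 were tested, none rose and Mfge8 fell by 0.69 on the log2 scale, with a median of -0.16, a sum of 6.54 to 10.5 CPM and Pdpn at 0.

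Conventional dendritic cell markers rose in 4 of 7 tested genes, Zbtb46 (1.18) and Flt3 (0.74) with the smallest p, and had a median log2 fold change of 0.99. Their sum was 31.9 and 34.2 CPM in MIZ-1 WT against 68.1 and 50.3 CPM in MIZ-1 ΔPOZ. Plasmacytoid dendritic cells carry B220. None of their 6 markers rose and 1 fell, Ly6d, with a median of -0.25, whereas 2 rose and 0 fell with pan-B scaling. Ly6d, with a mean of 766 CPM in MIZ-1 WT, made up most of the list's sum of 1070 and 992 CPM there. Which cells its reads came from was not tested. T cell markers rose in 2 of 10 tested genes, Cd28 and Cd4, with a median of 0.07 and a sum of 68.4 to 94.1 CPM. Neutrophil markers rose in 2 of 5 tested genes, Ltf and Retnlg, with a median of 1.77. Both rested on low counts, 6 and 9 against 48 and 90 for Ltf and 7 and 3 against 15 and 28 for Retnlg. The neutrophil sums overlapped, at 13.6 and 4.19 CPM in MIZ-1 WT against 8.09 and 16.0 CPM in MIZ-1 ΔPOZ. Erythroid markers rose in 1 of 8 tested genes, Epor, with a median of 0.61 and a sum of 42.9 to 119 CPM. With pan-B scaling the medians of the platelet, plasmacytoid dendritic and stromal lists turned positive (0.10, 0.01 and 0.09), and Pecam1 and Ly6d lost their calls. The part of these cells in the differences of the MZ genes was not tested.

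For each MZ gene, the protein-coding genes with the most similar pattern over the 4 libraries were sought among 8406 candidates with a mean of at least 10 CPM, by the root mean square difference of centred log2 CPM. Asb2 was nearest to Birc5 (0.0383), which encodes survivin, and to the replication factor gene Mcm10 (0.0930). Cd36 was nearest to Slc7a5 (0.0161), a large amino acid transporter gene, and to Ly6a (0.0453), which encodes SCA-1. S1pr3 was nearest to Dtx4 (0.0375), a deltex family gene, and to Tmem154 (0.0427). Cd9 was nearest to Gm43302 (0.0395) and Sowahc (0.0569), Cd1d1 to Tmem256 (0.0258) and Acad10 (0.0309), and Cr2 to the ribosomal protein gene Rpl27a (0.00625) and Tep1 (0.00948). With 4 libraries these are descriptions of likeness.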

How the data were processed

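RNA-seq of B220+ splenocytes gave 2 libraries per genotype, grouped by the labelled genotype. Stranded, rRNA-depleted paired-end reads were trimmed with Trimmomatic, mapped to GRCm38 with TopHat2 (version 2.1.0 per the labels) and counted on Ensembl genes with HTSeq. The authors deposited raw counts per gene, neither normalized nor pooled. Strand setting and Ensembl release were not given in the sources used here, so genes overlapping on opposite strands are uncertain. Multi-mapping reads (42.8% to 44.1% of the table) and reads outside genes (21.1% to 27.2%) were left out.

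Symbols, from GENCODE on GRCm38, were found for 40340 genes. Genes reaching 10 counts in 2 or more libraries were fitted with edgeR version 4.0.16 in R version 4.3.3 (TMM, quasi-likelihood test, Benjamini-Hochberg adjustment over 14554 genes, threshold 0.05). The study names DESeq for its differential expression and DESeq2 in its statement on statistics. Counting error alone was exceeded between replicates (chi-square per gene 10.1 for MIZ-1 WT, 22.0 for MIZ-1 ΔPOZ). On simulated counts of 14366 genes edgeR recovered 93.8% of 194 changed genes with 8 false calls. The rate of recovery or of false calls with as many changed genes as the 5822 called here was not tested.

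The members and gene lists were chosen with earlier results of these data known. Named genes were the 6 members, every tested gene of a family list, the 2 smallest p-values per direction in each subset or marker list, the 2 genes most similar to each member, and Zbtb17. Pan-B scaling set library sizes by the pan-B genes without Cd79a. Other alternatives were DESeq2's size factors, its Wald test (version 1.42.0), other count filters, removal of 199 immunoglobulin segments, a replicate block, and leaving out each library. Promoters were RefSeq windows on GRCm38.p6. Ighd was not analysed here, and some genes that meet the naming rule are not reported here.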

Additional observations from a re-analysis of the deposited data

Results flagged for a closer look

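The summary lines of the counting, which enter no comparison, differed between the genotypes. Ambiguous reads were 0.302% in MIZ-1 ΔPOZ replicate 1 and 0.301% in replicate 2, above 0.281% and 0.287% in MIZ-1 WT. Reads without a unique alignment made up 43.6% and 44.1% in MIZ-1 ΔPOZ, above 42.8% and 43.5% in MIZ-1 WT.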

How the results depend on the processing

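Each of the 6 MZ genes kept its direction under all 11 alternatives. Cd1d1, Cd9, Asb2 and Cd36 also kept an adjusted p under 0.05 under all of them. Cr2 lost its call without MIZ-1 WT replicate 1 (0.24), without MIZ-1 WT replicate 2 (0.26) and without MIZ-1 ΔPOZ replicate 2 (0.21), with a range of 0.21 to 0.30 over the left-out libraries, and S1pr3 lost it without MIZ-1 WT replicate 2 (0.66), with a range of 0.58 to 0.93. Ranges over the left-out libraries were 0.61 to 0.73 for Cd1d1, 1.09 to 1.38 for Cd9, 1.65 to 2.01 for Asb2 and 0.80 to 1.01 for Cd36. These fits leave 1 library in a genotype, which is assumed to vary like the others. They called 4 to 6 of the 6 genes, and 4 to 5 passed a log2 fold change of 0.6. Over all genes they called 2204 (without MIZ-1 WT replicate 1), 2825 (without MIZ-1 WT replicate 2) and up to 5739 genes, against 5822 with all libraries, and a mean of at least 30 RPM left 6052 genes with 2746 calls.

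Scaling to pan-B genes shifted the median log2 fold change of all genes by 0.25 and turned the split of calls from 52.8% higher to 88.6% higher (5974 higher, 772 lower). The MZ genes were then 0.50 for Cr2, 0.92 for Cd1d1, 1.00 for S1pr3, 1.15 for Cd36, 1.47 for Cd9 and 2.07 for Asb2. Medians moved to 1.05 for other MZ genes (again the value of Cd1d2), -0.57 for FO genes and -0.01 for pan-B genes. Without MIZ-1 ΔPOZ replicate 1 the macrophage median was 1.55. Each of the 6 genes had at least 717 counts in every library, and with 2 libraries a genotype the spread was estimated over all genes together.

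Replicate numbers were not used to pair the libraries in the main fit. Deviations of same-numbered libraries from their genotype means had a Pearson correlation of -0.0688 over 14554 genes (Spearman -0.132). With 2 libraries a genotype, these values cannot show whether libraries were prepared in pairs. With a replicate block 4732 genes were called, and all 6 MZ genes, with 0.25 for Cr2, 0.66 for Cd1d1, 1.23 for Cd9, 0.75 for S1pr3, 1.83 for Asb2 and 0.90 for Cd36.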

Other observations

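Most tested genes of B-1 and plasma cells, which share Cd9 with MZ B cells, were also higher in MIZ-1 ΔPOZ. Of 9 tested, 6 rose and none fell, with a median log2 fold change of 0.59. The 3 that did not pass were Cd5 (0.26), Spn (0.10) and Irf4 (-0.09), named after their values were seen. Of these, Spn was called higher with pan-B scaling. Prdm1, the regulator of plasma cell formation, rose by 1.40 (SE 0.10, adjusted p = 0.000887, edgeR quasi-likelihood test) from 272 and 287 to 827 and 747 counts, and Xbp1, which expands the secretory pathway, rose by 0.55 (SE 0.07, adjusted p = 0.00329). The summed level of the list was 801 and 1129 CPM in MIZ-1 WT and 2554 and 2386 CPM in MIZ-1 ΔPOZ.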
